A study of Rattus norvegicus with 12 samples.

Results

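Fkbp5 and 8 further genes of the chaperone machinery that prepares steroid receptors for hormone were followed across 12 expression arrays of neonatal rat heart cells. The genes were taken by symbol: Fkbp5, Fkbp4, Hsp90aa1, Hsp90ab1, Ptges3, Stip1, Hspa8, Dnajb1 and Hspb1. The array carried 13 probe sets for these 9 genes among 31042 that are not controls, and the annotation names 14863 genes in all. Each gene was read from its probe set of highest mean signal, with the others checked. Ventricular cells of 1-day-old Wistar rats, separated by how readily they attach, were kept for 24 h in a serum-reduced medium and treated for 3 h. The groups were cortivazol (CVZ), corticosterone (COR) or aldosterone (ALD) after RU486, RU486 alone, CVZ, COR, ALD, and the ethanol vehicle. Each of the 4 RU486 groups had 1 array, from the second experiment, where RU486 was given at 10 µM before the ligand. The CVZ, COR, ALD and vehicle groups had 2 arrays each, 1 in each of 2 experiments. How much of each ligand was given is not stated in the sources used here, so differences between ligands hold for the unknown amounts applied. Nothing says that the experiments used separate litters or cultures, so a p-value here reflects spread among arrays, which may be technical.

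Unliganded glucocorticoid and mineralocorticoid receptors are held by the Hsp90 chaperone in a form that can bind hormone. Hsp70 with its J-domain partners starts the receptor's loading, Hop (Stip1) hands it to Hsp90, and p23 (Ptges3) stabilises the mature complex, which also carries an immunophilin, either FKBP51 (Fkbp5) or FKBP52 (Fkbp4). FKBP51 lowers the receptor's affinity for hormone, and its gene is a classical target of the glucocorticoid receptor, so that it forms a negative feedback loop. Corticosterone is the main glucocorticoid of the rat, aldosterone the main mineralocorticoid, cortivazol a potent synthetic glucocorticoid, and RU486 (mifepristone) an antagonist of the glucocorticoid receptor.

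All values are array signals divided so that the median probe set of each array is 1, and the number of arrays limits their precision. The 7 cardiomyocyte markers read (Myh6, Myh7, Tnnt2, Tnni3, Myl2, Ryr2 and Pln) summed to between 1482 and 1644 on the 4 arrays with RU486. On the 8 arrays without it they summed to 1658–1906 in the second experiment and 1760–1938 in the first. None of the 7 was called for RU486 against vehicle, where 0.129% of all probe sets were called. The 7 fibroblast markers, such as Col1a1 and Postn, summed to 184–215 in the second experiment and 386–484 in the first. All 7 were lower in the second by limma's test, as were 28.2% of all probe sets tested. Smooth muscle markers summed to 39.6–45.8 in the first experiment. In the second they summed to 18.1–21.9 with RU486 and 24.1–29.2 without. The 4 endothelial markers summed to 11.9–25.6 in the first experiment and 5.44–17.0 in the second. That sum includes Kdr, which read 2.30 to 15.3 and rose by 1.83 with CVZ (adjusted p = 6e-06, limma). Tek differed by 0.07 and Pecam1 by 1.08 with CVZ, and neither was called. The macrophage markers summed to 7.92–9.23 in the first experiment and 4.46–5.70 in the second. No listed marker was at exactly 0, but Vwf, Adgre1 and Cd163 were too dim to be tested.

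The proximal promoters of 4 of the genes are shown, because Fkbp5 was the gene that responded to every ligand and several of the others are classical heat shock genes. RefSeq sequences of GRCr8, covering 250 bases before the annotated start, matched 8 of the 9 genes, with Hsp90aa1 named only. Each was searched on both strands for the core heat shock element, GAANNTTC or TTCNNGAA, where overlapping matches share bases, and for the glucocorticoid response element, as its core repeat AGAACA and as the full element with up to 2 mismatches. Capitals mark heat shock elements, read 5′ to 3′ on the gene's strand, for Fkbp5 (chr20:6543556-6543805, minus), Fkbp4 (chr4:163397919-163398168, minus), Hspa8 (chr8:50080264-50080513, plus) and Hspb1 (chr12:26432302-26432551, minus).
Fkbp5: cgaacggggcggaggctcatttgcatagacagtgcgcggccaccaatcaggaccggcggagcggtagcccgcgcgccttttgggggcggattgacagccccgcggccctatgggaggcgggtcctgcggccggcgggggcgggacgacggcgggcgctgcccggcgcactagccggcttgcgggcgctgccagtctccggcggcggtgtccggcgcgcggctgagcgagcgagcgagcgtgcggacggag
Fkbp4: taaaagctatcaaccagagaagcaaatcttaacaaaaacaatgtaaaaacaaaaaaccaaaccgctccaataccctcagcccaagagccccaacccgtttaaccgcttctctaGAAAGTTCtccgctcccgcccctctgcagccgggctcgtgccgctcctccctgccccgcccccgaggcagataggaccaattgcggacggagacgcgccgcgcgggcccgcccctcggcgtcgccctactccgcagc
Hspa8: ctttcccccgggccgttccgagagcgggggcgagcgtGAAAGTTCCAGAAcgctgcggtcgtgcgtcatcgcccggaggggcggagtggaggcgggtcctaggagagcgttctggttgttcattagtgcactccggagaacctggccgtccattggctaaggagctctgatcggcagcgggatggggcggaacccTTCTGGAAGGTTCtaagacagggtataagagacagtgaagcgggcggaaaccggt
Hspb1: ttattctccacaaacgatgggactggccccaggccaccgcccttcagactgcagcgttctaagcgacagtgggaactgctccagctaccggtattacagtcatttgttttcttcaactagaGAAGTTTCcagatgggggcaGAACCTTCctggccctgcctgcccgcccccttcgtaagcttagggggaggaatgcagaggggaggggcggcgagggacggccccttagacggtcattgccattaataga
A heat shock element stood in 5 of the 8 promoters, against 13.5% of all 33469 rat promoters of that length. Hspa8, which encodes the constitutive Hsp70 chaperone, had 4 matches in overlapping pairs. Hspb1, the small heat shock protein Hsp27, had 2, and Fkbp4, Stip1 and Dnajb1 had 1 each. Fkbp5 had none in a stretch that was 76% G and C, and Hsp90ab1 and Ptges3 had none either. The core repeat was found in 0 of the 8 promoters, against 17.5% of all, and the full element in 0 of 8, against 1.58%. These counts describe the letters of these windows. In human FKBP5 the known hormone-responsive elements lie largely outside this stretch, in introns.

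Fkbp5 rose with every ligand, most with CVZ and least with ALD, and RU486 removed most of that response. Its signal was 43.5 in the first and 43.8 in the second experiment with CVZ. The COR arrays read 26.6 and 28.2, and the ALD arrays 10.9 and 13.4, against 1.52 and 2.17 on the vehicle arrays. The 4 groups did not overlap, and the order CVZ, COR, ALD, vehicle was the same in both experiments. How many other probe sets separate in this way was not counted. Group means were 43.6 ± 0.204 with CVZ, 27.4 ± 1.14 with COR, 12.2 ± 1.76 with ALD and 1.84 ± 0.461 with vehicle (SD, n = 2 arrays each). In bulk samples, fewer cells of a type and less RNA per cell cannot be told apart.

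On the log2 scale, in a limma fit over 18625 probe sets with the experiment as a block, Fkbp5 rose by 4.54 ± 0.14 (SE) with CVZ, a 23.2-fold change (95% interval 19.0 to 28.4) with limma's adjusted p = 2.3e-11. The rise with COR was 3.87, or 14.6-fold (adjusted p = 1.2e-10, limma). With ALD it was 2.69, or 6.47-fold (adjusted p = 1.4e-08, limma). The rise was somewhat larger in the first experiment, where the vehicle array read lower. Within the second experiment the log2 differences were 4.29, 3.66 and 2.59 for CVZ, COR and ALD, and within the first they were 4.78, 4.07 and 2.80. Fkbp5 was the single gene of the 9 that passed an adjusted p of 0.05 in each of these comparisons. Of all probe sets tested, 7.96% passed with CVZ, 3.39% with COR and 0.950% with ALD.

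**Figure D1:**
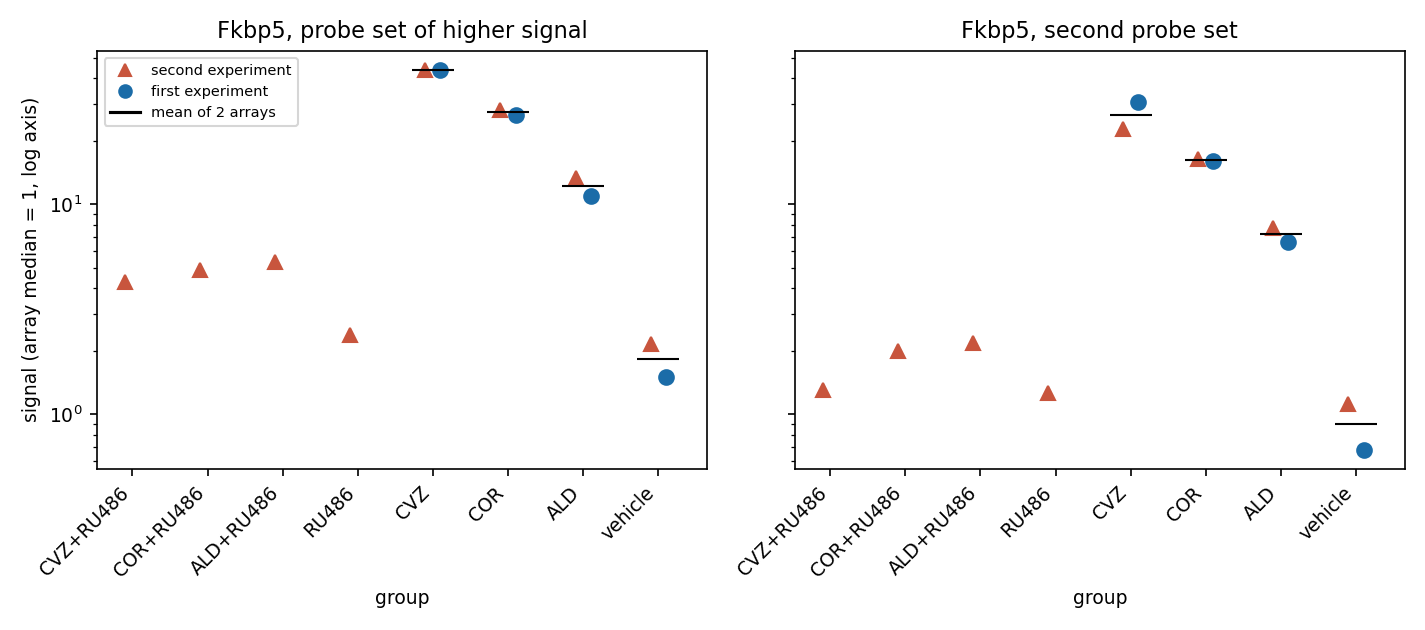
Fkbp5 signal (log axis, relative to each array's median probe set) on the 12 arrays by group, for the higher-signal probe set and the second one. Triangles are arrays of the second experiment, circles of the first, and bars the mean of 2 arrays. The CVZ arrays (43.5 and 43.8 on the higher-signal probe set) stand highest and the vehicle arrays (1.52 and 2.17) lowest, with the arrays that combine a ligand with RU486 at 4.25 to 5.33.

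The 3 pairs of ligands were compared directly, at amounts the labels do not give. Fkbp5 was higher with CVZ than with ALD by 1.84 on the log2 scale (95% interval 1.55 to 2.13), or 3.59-fold, with limma's adjusted p = 1.3e-06. CVZ exceeded COR by 0.67 (0.38 to 0.96), or 1.59-fold (adjusted p = 0.026, limma). COR exceeded ALD by 1.17 (0.88 to 1.46), or 2.26-fold (adjusted p = 0.0017, limma). The background of called probe sets was 4.25%, 0.966% and 0.295% for these comparisons, and none of the other 8 genes was called in any of them. CVZ and ALD differed most, and each difference had the same sign within both experiments. The call between CVZ and COR was the least firm: limma's adjusted p was 0.16 on the second probe set and between 0.068 and 0.35 when any 1 CVZ or COR array was left out. The call between COR and ALD was lost without the COR array of the first experiment (adjusted p = 0.12, limma).

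RU486 alone gave an Fkbp5 signal of 2.40, near the vehicle array of the same experiment at 2.17. The fitted difference was 0.28 (95% interval -0.09 to 0.65; adjusted p = 0.86, limma). The combined arrays read 4.25 with CVZ and RU486, 4.85 with COR and RU486, and 5.33 with ALD and RU486, against 43.8, 28.2 and 13.4 with the same ligands alone in that experiment. Each combined array thus lay far below its ligand and above both RU486 and vehicle. Fkbp5 fell by 3.45 on the log2 scale with CVZ and RU486 relative to CVZ (adjusted p = 4.9e-08, limma). With COR and RU486 it fell by 2.59 relative to COR (adjusted p = 3.1e-06, limma). With ALD and RU486 it fell by 1.29 relative to ALD (adjusted p = 0.019, limma). The mean over the 3 ligands was -2.44 (95% interval -2.67 to -2.21; adjusted p = 7e-09, limma), and 4.87% of all probe sets were called in this mean, with 4.68%, 0.854% and 0.0215% called for CVZ, COR and ALD singly. That background leaned on the CVZ with RU486 array: without it 72 probe sets were called higher and 114 lower, against 350 and 557 with it. The lone RU486 arrays were assumed to vary like the replicated groups.

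The interaction term, which sets the ligand response with RU486 against the response without it, was -2.72 ± 0.19 (SE) for Fkbp5 (adjusted p = 2.3e-06, limma), with 1.09% of all probe sets called. By ligand it was -3.73 for CVZ, -2.87 for COR and -1.56 for ALD, each called (adjusted p of 9e-07, 2.2e-05 and 0.013, limma), beside 2.44%, 0.489% and 0.0805% of probe sets called. Whether these 3 terms differ from each other was not tested. The call of the averaged term was lost without the experiment block and without the intensity trend, where 0 of 18625 probe sets were called. On the signal scale of the second experiment, the CVZ increment was 1.86 over RU486 alone in its presence, against 41.6 over vehicle in its absence, so 4.46% was left. The share left was 9.43% for COR and 26.1% for ALD, and on the second probe set 0.20%, 4.89% and 13.8% for CVZ, COR and ALD. The smaller share thus belonged to the larger response on both probe sets. The increments with RU486 were 1.86 with CVZ, 2.46 with COR and 2.93 with ALD on the first probe set, and 0.0437, 0.748 and 0.916 on the second, each from 1 array against 1.

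Under RU486 the order of the ligands was the opposite of that without it, with ALD highest and CVZ lowest on both probe sets, but no pair differed by the test. The difference between CVZ with RU486 and ALD with RU486 was -0.32 (95% interval -0.73 to 0.09), that between CVZ and COR with RU486 was -0.19 (-0.60 to 0.22), and that between COR and ALD with RU486 was -0.13 (-0.54 to 0.28), each of 1 array against 1. The remaining difference between ligand with RU486 and RU486 alone averaged 0.98 for Fkbp5 (0.65 to 1.31; unadjusted p = 1.49e-05 and adjusted p = 0.24, limma). In that comparison limma called 0 of 18625 probe sets, while 462 had an unadjusted p under 0.05. Fkbp5 was called there after quantile normalization (1.04, adjusted p = 0.027, limma) and when either vehicle array was left out.

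The second Fkbp5 probe set gave lower signals with the same order of groups. It read 30.6 and 22.9 with CVZ in the first and second experiment, 16.2 and 16.4 with COR, 6.64 and 7.76 with ALD, and 0.678 and 1.12 with vehicle. The changes were 4.82 with CVZ, 4.12 with COR and 2.94 with ALD on the log2 scale, and -3.04 for ligand with RU486 against ligand, all called. The pair of probe sets disagreed on what was left under RU486: the mean difference from RU486 alone was 0.48 on the second (95% interval -0.02 to 0.98; adjusted p = 1, limma). Over the 12 arrays the ratio of the higher to the lower probe set lay between 1.42 and 3.25 and was highest with CVZ and RU486.

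The highest Fkbp5 signal over the 12 arrays was 28.9 times the lowest. For the other 8 genes this ratio lay between 1.24 and 1.44, and the widest on any of their further probe sets was 1.65, for Hsp90aa1. Of the 10081 other named genes compared, the 6 whose log2 signals followed Fkbp5 most closely over the 12 arrays were Capn10, a calpain protease (Pearson r = 0.993), Trim54, a muscle RING-finger protein (0.984), Rhobtb1 (0.983), Golm1, a Golgi membrane protein (0.980), Sult1a1, a sulfotransferase (0.980), and Spata13 (0.976). These values describe likeness over arrays that share groups and scaling.

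**Figure D2:**
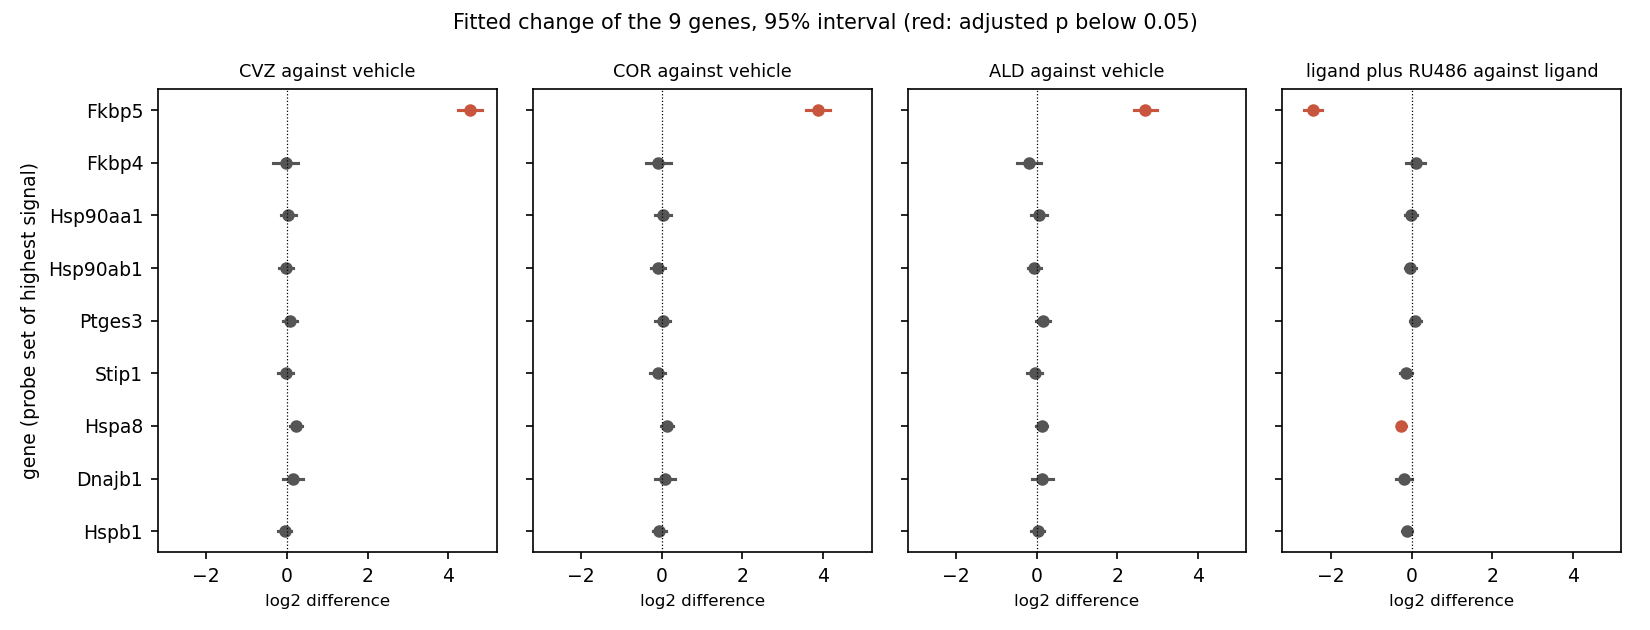
Fitted log2 change of the 9 genes (points, with 95% intervals as bars) for CVZ, COR and ALD against vehicle and for ligand plus RU486 against ligand. Red marks an adjusted p under 0.05. Fkbp5 lies at 4.54, 3.87, 2.69 and -2.44, Hspa8 at -0.25 in the last comparison, and every other point within 0.25 of 0.

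None of the other 8 genes passed the test with any ligand against vehicle. Their largest log2 difference was 0.22 with CVZ, 0.12 with COR and 0.18 with ALD in size. Their 95% intervals all lay within 0.40, 0.39 and 0.49 of 0 for CVZ, COR and ALD, so changes of the size seen for Fkbp5 lie outside them. The median over the 9 genes was 0.04 with CVZ, 0.02 with COR and 0.06 with ALD, beside 0.01, 0.01 and 0.02 over all probe sets tested. RU486 against vehicle called none of the 9 genes, with 0.129% of probe sets called.

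Neither of the cytosolic Hsp90 transcripts was called with a ligand. Hsp90ab1, which encodes the constitutive form, read between 90.9 and 112 with a median of 96.7. Its log2 difference from vehicle was -0.02 with CVZ, -0.09 with COR and -0.06 with ALD. Hsp90aa1, which encodes the stress-inducible form, was read by probe sets that the annotation also gives to Hsp90aa1-ps17, so its value cannot be put down to 1 gene. That reading was 87.8 and 79.3 with CVZ in the first and second experiment, 99.8 and 69.1 with COR, 99.6 and 71.7 with ALD, and 92.6 and 71.2 with vehicle. With RU486 it was 74.2 with CVZ, 70.8 with COR, 72.4 with ALD and 76.2 alone. The 4 arrays of the first experiment stood above the 8 of the second, whatever the treatment. Between the experiments 38.9% of all probe sets were called.

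Fkbp4, which shares its place in the receptor complex with Fkbp5, did not follow it. Its signal was 10.4 and 10.2 with CVZ in the first and second experiment, 11.1 and 8.86 with COR, 8.36 and 10.2 with ALD, and 9.63 and 11.5 with vehicle. With RU486 it was 10.1 with CVZ, 10.3 with COR, 11.7 with ALD and 11.5 alone. The groups overlapped throughout, and the fitted differences were -0.03 with CVZ, -0.08 with COR and -0.18 with ALD. Fkbp5 with CVZ was thus 23.2-fold above vehicle while the 95% interval of Fkbp4 lay within 0.40 of 0 on the log2 scale.

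Stip1, the adaptor between Hsp70 and Hsp90, ran from 23.8 to 32.0. It was 24.4 with CVZ and RU486, 27.0 with COR and RU486, 25.4 with ALD and RU486 and 23.8 with RU486 alone, against 27.7 to 32.0 on the 8 arrays without RU486. The arrays with RU486 were therefore all below those without, which include the 4 arrays of the first experiment, where RU486 was not given. The fitted effect of RU486 over all backgrounds was -0.18 for Stip1 with limma's adjusted p = 0.14, and 4.02% of probe sets were called there. The first Dnajb1 probe set was split in the same way, at 9.17 to 9.63 with RU486 and 9.68 or more without, but its second was not. How many probe sets are split so was not counted. Ptges3, the p23 co-chaperone, ran from 49.5 to 70.8, with differences from vehicle of 0.07, 0.02 and 0.15 for CVZ, COR and ALD. Dnajb1, the Hsp40 partner of Hsp70, ran from 9.17 to 11.9, and Hspb1 from 71.1 to 88.4. Both had their lowest value on an array with RU486, and neither passed the test (ligand with RU486 against ligand: -0.18 and -0.11, adjusted p of 0.38 and 0.42, limma).

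Hspa8 was, with Fkbp5, 1 of the 2 members called for ligand with RU486 against ligand. Its probe set is also annotated to Haus8l2. It read 156 with CVZ and RU486, 159.9 with COR and RU486, 166 with ALD and RU486 and 166 with RU486 alone. Without RU486 in the second experiment it read 201 with CVZ, 190.4 with COR, 190.0 with ALD and 163 with vehicle. The arrays of the first experiment read 212 with CVZ, 195 with COR, 195 with ALD and 191 with vehicle. The RU486 arrays thus lay below every ligand array, while the second vehicle array was at their level. The number of probe sets with such a split was not counted.

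Hspa8 fell by 0.25 on the log2 scale with ligand and RU486 relative to ligand (95% interval -0.37 to -0.13; adjusted p = 0.012, limma), and by 0.36 for CVZ (adjusted p = 0.025, limma). Against vehicle it was 0.22 higher with CVZ, which did not pass (0.08 to 0.37; adjusted p = 0.061, limma). In the same comparison 5 of the 7 cardiomyocyte markers fell, by 0.20 to 0.29 (Myh6, Myh7, Tnni3, Myl2 and Pln). Their part in the Hspa8 result was not tested. The Hspa8 call was lost after quantile normalization (-0.08, adjusted p = 0.32, limma), without the block (0.48), without the filter (0.11), without the trend (0.37), and without the CVZ with RU486 array (0.23). It was also lost without the second-experiment array of CVZ (0.099), COR (0.08) or ALD (0.06).

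**Figure D3:**
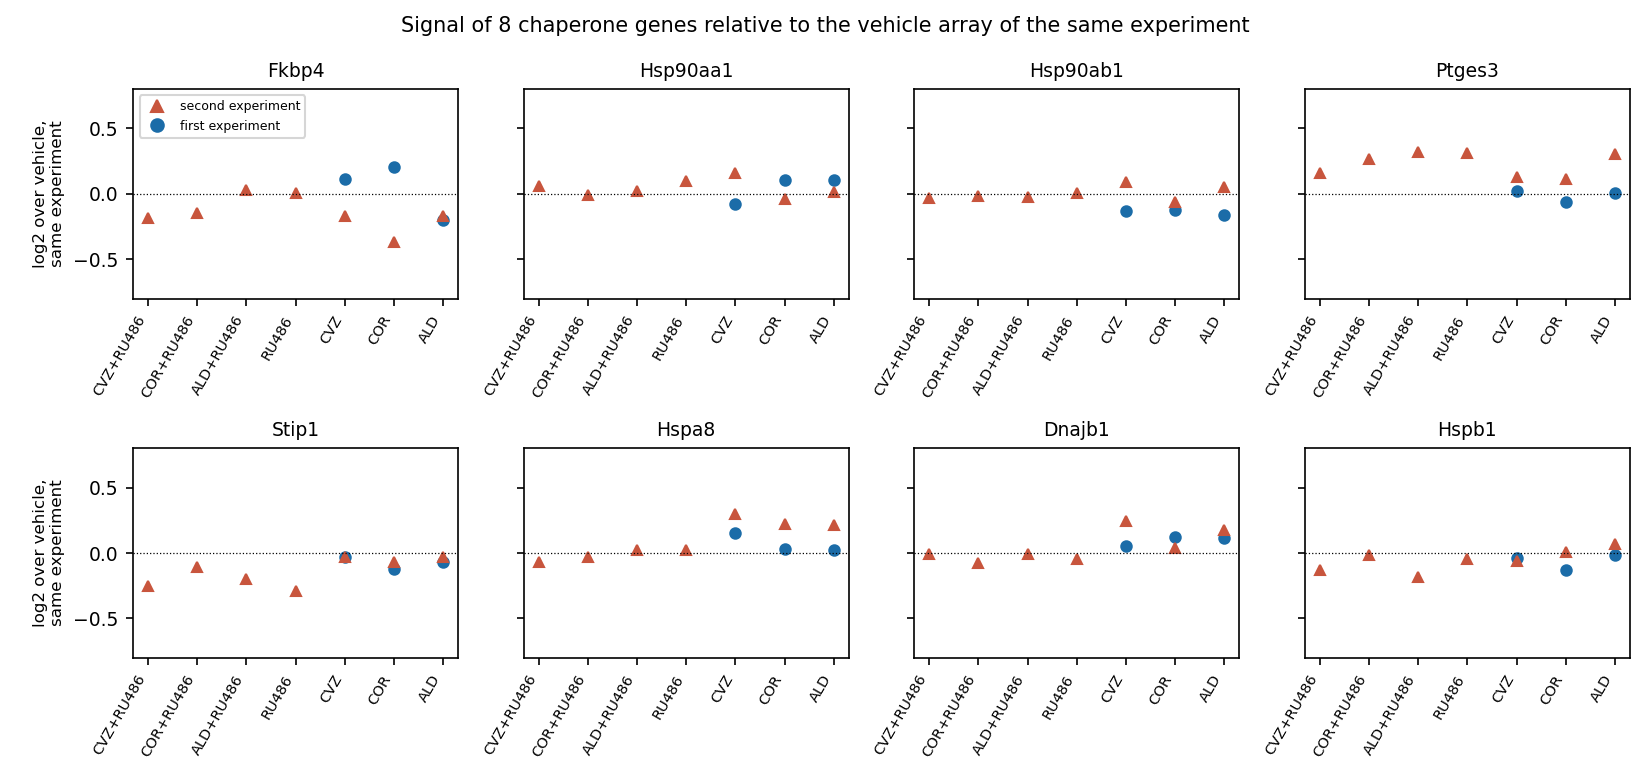
Log2 signal of the 8 other genes over the vehicle array of the same experiment, by group, with triangles for the second experiment and circles for the first. All points lie between -0.8 and 0.8, and for Hspa8 the second-experiment arrays of CVZ, COR and ALD lie above the RU486 arrays.

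On the deposited scale the experiments differed for 2 of the members. Between the second and the first experiment 38.9% of all probe sets were called, and the median of all tested was -0.10. Hsp90aa1 fell by 0.38 (adjusted p = 0.00019, limma), and by 0.50 on its other probe set. Ptges3 fell by 0.35 (adjusted p = 0.00023, limma): it read 54.0, 53.3, 61.0 and 49.5 with CVZ, COR, ALD and vehicle in the second experiment, against 70.8, 66.9, 70.1 and 69.8 in the first. All 7 fibroblast markers fell in the second experiment too, and their part in these differences was not tested. After quantile normalization, which moved the median of all tested to 0.03, the differences were -0.14 for Hsp90aa1 and -0.07 for Ptges3 and neither passed. Hsp90ab1, Stip1, Hspa8 and Hspb1 changed sign there.

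Beyond the 9 genes, 92 genes of the chaperone families were listed, of which 88 were on the array and 85 were tested. With CVZ 6 rose and 1 fell, with COR 4 rose and 1 fell, and with ALD 1 rose. The background of probe sets called higher was 4.77% with CVZ, 2.44% with COR and 0.870% with ALD, and that called lower was 3.19% with CVZ and 0.956% with COR. The list's median was 0.06 with CVZ, 0.04 with COR and 0.05 with ALD, beside 0.01, 0.01 and 0.02 for all tested. For ligand with RU486 against ligand 6 fell and none rose, with 2.99% of probe sets called lower. In that comparison 5 of the 7 cardiomyocyte markers fell as well, and their part in these 6 was not tested. Leaving out 1 array at a time gave 3 to 7 genes with CVZ, 2 to 5 with COR and 0 to 2 with ALD. For the RU486 comparison it gave 1 to 9, the lowest being without the CVZ with RU486 array, where Dnajb4 was left. Without the experiment as a block, 1 of the 85 was called with CVZ and 0 with COR, ALD or the RU486 comparison.

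Of 21 further Hsp90 co-chaperones and relatives, 2 rose with CVZ. Cdc37l1, a relative of the kinase co-chaperone Cdc37, followed the same order of ligands as Fkbp5. It read 14.6 and 13.5 with CVZ, 9.22 and 8.47 with COR, 5.55 and 6.10 with ALD, and 3.78 and 3.26 with vehicle. With RU486 it read 4.30 with CVZ, 5.13 with COR, 5.48 with ALD and 3.94 alone. The groups without RU486 did not overlap, and how many probe sets separate so was not counted. Cdc37l1 rose by 1.98 with CVZ, or 3.93-fold (adjusted p = 9.1e-08, limma), by 1.31 with COR (1.8e-05) and by 0.72 with ALD (0.017), and its interaction term with RU486 was -1.01 (adjusted p = 0.016, limma). Its second probe set gave 1.68 with CVZ and 1.29 with COR, both called, and 0.57 with ALD, which was not (adjusted p = 0.54, limma). On the first probe set the ALD call was lost without the second-experiment array of ALD or of vehicle, without the block and without the trend. The interaction call was lost without the second-experiment vehicle array, the CVZ with RU486 array, the block or the trend. Itgb1bp2, the muscle Hsp90 co-chaperone melusin, rose by 0.35 with CVZ (adjusted p = 0.025, limma).

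Of 28 Hsp70 family members and co-chaperones tested, 2 rose with CVZ. Dnajb4, a J-domain co-chaperone of the same class as Dnajb1, read 44.0 and 38.2 with CVZ, 38.6 and 30.7 with COR, 28.2 and 24.9 with ALD, and 23.8 and 18.2 with vehicle. It read 15.9 with CVZ and RU486, 18.8 with COR and RU486, 18.7 with ALD and RU486, and 15.8 with RU486 alone, near the 18.2 of the vehicle array of the same experiment. Dnajb4 rose by 0.97 with CVZ (adjusted p = 3.1e-06, limma) and by 0.72 with COR (0.00017), and the 0.35 with ALD did not pass (0.13). It fell by 0.77 with ligand and RU486 relative to ligand (adjusted p = 1.2e-05, limma). Dnajb5, a related J-domain protein, rose by 0.95 with CVZ and 1.03 with COR (adjusted p of 0.0034 and 0.0036, limma). Its second probe set was called with CVZ (1.03, adjusted p = 0.013, limma) but not with COR (0.80, adjusted p = 0.1), and the dimmest probe set with neither (0.93 and 0.70, adjusted p of 0.087 and 0.34). Its COR call held in 12 of 16 alternatives.

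Among 11 FKBP immunophilins other than Fkbp5 and Fkbp4, Fkbp3, a nuclear prolyl isomerase, rose by 0.40 with CVZ and 0.42 with COR (adjusted p of 0.0069 and 0.011, limma). Among 6 small heat shock proteins, Cryab, the alpha-B crystallin of heart muscle, rose by 0.23 with CVZ (adjusted p = 0.043, limma). Hspb3, a small heat shock protein of muscle, fell by 0.61 with CVZ (adjusted p = 0.001, limma) and by 0.52 with COR (0.0078). It read 19.0 and 15.0 with CVZ, against 31.0 and 21.4 with vehicle. With RU486, in the second experiment, Hspb3 read 18.9 with CVZ, 16.8 with COR, 14.9 with ALD and 17.6 alone. Each of these lay below the 21.4 of that experiment's vehicle array. Hspb3 was called neither for RU486 against vehicle nor for ligand with RU486 against ligand. None of 15 chaperonin, co-chaperonin and prefoldin genes was called with CVZ, nor any of 4 genes for heat shock factors or their binding protein Hsbp1. Hsf1, the main heat shock factor, differed by -0.04. With ligand and RU486 relative to ligand, Dnajb5 fell by 0.57 (adjusted p = 0.034, limma), Cryab by 0.30 (0.0023), Fkbp3 by 0.26 (0.043) and Hspd1, the mitochondrial chaperonin, by 0.22 (0.042). In this comparison the further Dnajb5 probe sets gave -0.31 and -0.80 and the second Cdc37l1 probe set -0.59, and none of these was called. Over 19 alternatives the RU486 call of the first probe set held in 17 for Dnajb4, 16 for Cdc37l1 and 15 for Cryab. It held in 11 for Dnajb5, 8 for Fkbp3 and 7 for Hspd1. Over 16 alternative settings or left-out arrays, the call with CVZ held in 16 for Cdc37l1, 15 for Dnajb4, 14 for Hspb3, 12 each for Dnajb5 and Fkbp3, 10 for Itgb1bp2 and 6 for Cryab.

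**Figure D4:**
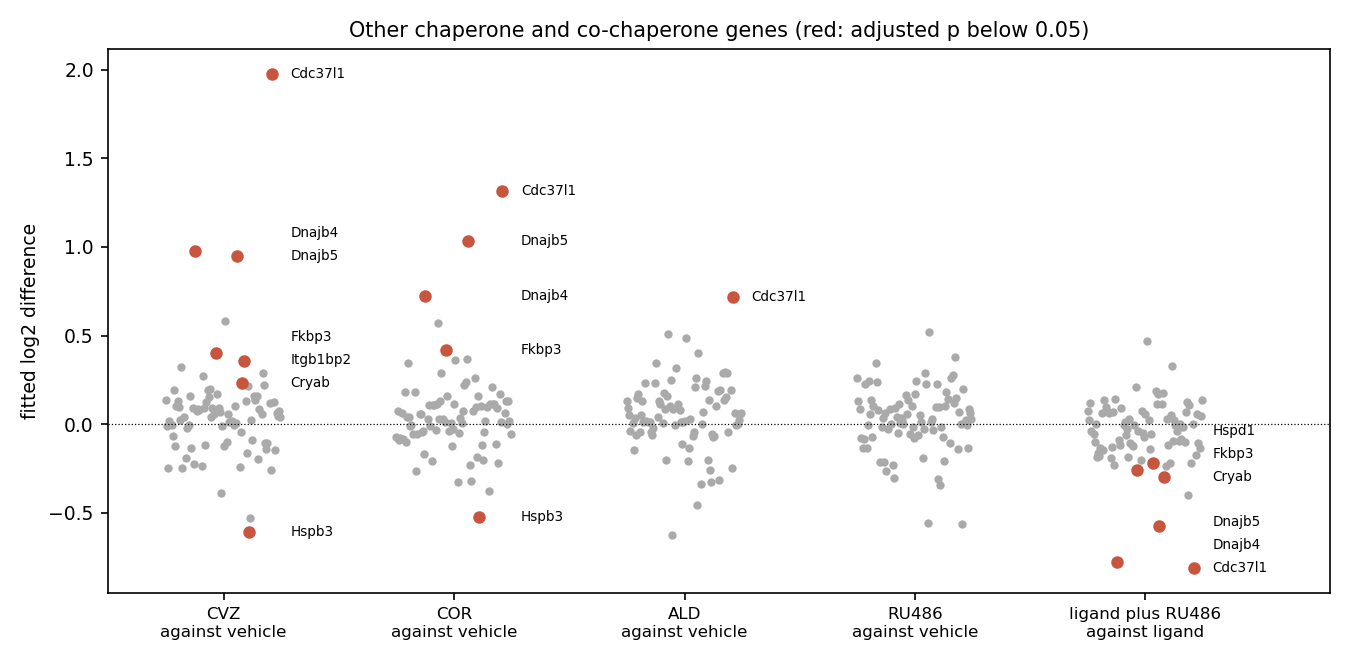
Fitted log2 change of the 85 other chaperone genes in 5 comparisons, 1 point per gene, with genes called at an adjusted p under 0.05 in red and named. Cdc37l1 stands highest with CVZ at 1.98, and Hspb3 lowest at -0.61 among those called there.

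Of 6 genes for receptors that these chaperones serve, 3 were bright enough to be tested, and 1 of them, Nr3c1, the glucocorticoid receptor gene, fell with CVZ. It read 6.27 and 6.04 with CVZ, 8.29 and 7.14 with COR, 9.07 and 8.92 with ALD, and 11.6 and 9.54 with vehicle. With RU486 it read 10.2 with CVZ, 10.8 with COR, 9.77 with ALD and 10.5 alone. Every CVZ and COR array thus read below every array with RU486 or vehicle, a split not counted over all probe sets. Nr3c1 fell by 0.77 on the log2 scale with CVZ (adjusted p = 0.00056, limma) and was 0.51 higher with ligand and RU486 than with ligand (adjusted p = 0.0042, limma). The RU486 call was lost without the CVZ with RU486 array, without the block and without the trend, and the CVZ call without the block (adjusted p up to 0.37 and 0.17, limma). Its dimmer second probe set gave -0.44 with CVZ and did not pass (adjusted p = 0.55, limma). Nr3c2, the mineralocorticoid receptor, read between 1.76 and 3.45, with a difference of -0.09 with CVZ (95% interval -0.60 to 0.42).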

How the data were processed

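Total RNA of 12 samples was hybridised to 1 rat expression array each. The deposited values are array intensities that the authors computed with MAS5, per the submitters' processing notes; the median probe set was 1 on every array. Probe sets were named from the platform annotation: 20826 had 1 gene, 436 several and 9780 none. After 57 control probe sets were left out, log2(value + 0.0696) was fitted with limma 3.58.1 in R 4.3.3 (8 groups, the experiment as a block, intensity trend), the added constant being the 10th percentile of all values. The 18625 probe sets with a mean log2 above the 40th percentile were tested, with Benjamini-Hochberg adjustment over all of them and calls at 0.05. All 25 comparisons came from 1 fit with 15.2 degrees of freedom, 3 of them residual, and the fit was tested on simulated data with known changes. The labels name the experiment of each array, which pairs the CVZ, COR, ALD and vehicle arrays; deviations of arrays of the same experiment from their group means correlated at 0.512 to 0.567. Comparisons between ligands and between RU486 groups share arrays, so they are not independent of each other.

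All 9 member genes are named. Of the wider chaperone lists, the text names the genes called with a ligand against vehicle or with ligand and RU486 against ligand. In each direction at most 6 were named. A few of the 3 uncalled genes of highest signal per list are named too, and no gene was picked for a call between the experiments. The members, the lists and the cell type markers were chosen with earlier results of these data known. The direct comparison of the arrays that combine a ligand with RU486, the comparison of the experiments and the exchange of probe sets were added after the values were seen. Actc1 was left out because its probe sets are annotated to several genes. Promoter sequences are those of RefSeq for GRCr8, and the array files carry no coordinates. Alternatives changed the added constant, the filter, the scaling, the block, the trend and the probe set, or left out 1 array. No array was dropped or imputed in the fit reported.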

Additional observations from a re-analysis of the deposited data

Results flagged for a closer look

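The Fkbp5 response to ligand differed between cells with and without RU486, by a direct test of that difference. The interaction term, averaged over CVZ, COR and ALD, was -2.72 on the log2 scale (95% interval -3.13 to -2.31; adjusted p = 2.3e-06, limma). The mean response was 0.98 over RU486 alone in its presence, against 3.70 over vehicle in its absence. The interaction call was lost without the experiment block and without the intensity trend. The presence of RU486 rests on 1 array per ligand and 1 of RU486 alone, all of the second experiment. Groups of 1 or 2 arrays are too small for a check of single outlying arrays.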

How the results depend on the processing

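On its first probe set Fkbp5 kept its direction and its call under every alternative setting or left-out array in the comparisons that follow. The log2 differences were 4.35 to 4.72 with CVZ, 3.68 to 4.05 with COR and 2.51 to 2.88 with ALD against vehicle. For ligand with RU486 against ligand they were -3.02 to -1.94. The second probe set was also called in each, at the values given earlier, which lay outside these ranges. The ranges do not cover values within a single experiment. Of 2190 values of the members under alternatives, 2088 were counted as the same. A value uncalled in both fits was counted so whatever its sign, and direction was compared only where either fit called the gene. Values of a single experiment, which had no test, were counted so when within the fit's standard deviation of the main value. Without the replicate block, 1 member was called for ligand with RU486 against ligand and for RU486 in all backgrounds (2 with it), and 0 for the interaction, CVZ against COR and COR against ALD (1 each with it). Fkbp5 then had an adjusted p of 0.083 for the interaction (limma). Without the intensity trend the same counts were 1, 1, 0, 0 and 0. Without the filter they were 1 and 1 for the comparisons with RU486 and 0 for CVZ against COR, which was also 0 with the second probe sets. The filter at the 60th percentile gave 2 members with CVZ, Hspa8 being added. Quantile normalization gave 1 for ligand with RU486 against ligand, 1 against RU486 alone (0 before) and 1 for RU486 in all backgrounds. Between the second and first experiment it gave 6 members and trimmed-mean scaling 4, against 2. There Hsp90ab1 turned to 0.13, Stip1 to 0.16, Hspa8 to 0.18 and Hspb1 to 0.17 under quantile normalization, and Hspa8 to 0.11 under trimmed-mean scaling. The cause was not tested.

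Leaving out 1 array at a time gave 1 to 2 members with CVZ and with the mean ligand, 1 to 1 with COR, ALD, CVZ against ALD and the interaction, and 0 to 0 with RU486 alone. It gave 1 to 2 for ligand with RU486 against ligand and for RU486 in all backgrounds, and 0 to 1 for ligand with RU486 against RU486, CVZ against COR and COR against ALD. Over all probe sets, CVZ called 889 higher and 594 lower, against 838 and 775 after quantile normalization, 782 and 807 after trimmed-mean scaling, and 179 and 36 without the block. COR called 454 and 178, against 432 and 271 after trimmed-mean scaling, and ALD 162 and 15, against 150 and 37 after quantile normalization. Ligand with RU486 against ligand called 350 higher and 557 lower, against 483 and 475 after quantile normalization, 6 and 43 without the block, 72 and 114 without the CVZ with RU486 array, 242 and 313 without the second-experiment CVZ array, and 219 and 354 without that of COR. The experiments differed at 1995 higher and 5250 lower, against 3558 and 3236, or 4421 and 3026 after trimmed-mean scaling. The number of arrays limits what could be seen: for Fkbp5 the 95% interval of RU486 against vehicle ran from -0.09 to 0.65.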

Other observations

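Dnajb1 was the member, apart from Fkbp5, whose closest followers were also listed. Over the 12 arrays the genes nearest to it were Uqcc2 (Pearson r = 0.949), Ndufv3 (0.929), Emc6 (0.928), Plac9 (0.924), Sh3bgr (0.924) and Oxa1l (0.923). Uqcc2, Ndufv3 and Oxa1l serve the mitochondrial respiratory chain. Dnajb1 spanned a 1.30-fold range, so these values describe small differences over arrays that share an experiment and a scaling.

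The genes that follow were each among the 3 of highest signal in their own chaperone list that were not called with a ligand. Hspb7, a small heat shock protein of heart and muscle, read between 68.9 and 117 with a difference of 0.09 with CVZ. Fkbp1a, the FKBP12 immunophilin, read between 48.2 and 71.6 with a difference of 0.13. Hsp90b1, the Hsp90 of the endoplasmic reticulum, read between 24.4 and 67.8 with a difference of 0.16. These ranges split by experiment, and 38.9% of all probe sets were called between the experiments. Hsp90b1 read 58.9 to 67.8 in the first experiment and 24.4 to 30.6 in the second. Fkbp1a read 62.2 to 71.6 in the first and 48.2 to 58.5 in the second. Hspb7 read 68.9 to 77.3 in the first and 96.7 to 117 in the second.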
